A study of Mus musculus with 2116 samples.

Results

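Cytosolic ribosomal protein genes are described here across single CD4+ T cells of the mouse spleen. Members were all rows of the count table whose symbol has the form Rps or Rpl followed by a number, Rplp followed by a number, or Rpsa, leaving out the S6 kinases and an S19 binding protein, whose symbols begin alike. The rule matched 92 of the 23725 genes, and the 86 with at least 20 UMIs over all cells were kept. A UMI, or unique molecular identifier, is a barcode that marks 1 captured mRNA molecule. The members comprised 31 small subunit genes, 46 large subunit genes, 5 rows of paralogs (Rpl39l, Rpl10l, Rps27l, Rpl7l1 and Rpl22l1) and 4 rows named as pseudogenes. The rule itself uses symbols and UMI number, not differences between cells, but it was set with earlier results of these data known.

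The cells came from 8-month-old males of the strain B6 Foxp3-Ires-Gfp, in which green fluorescent protein is read from the Foxp3 message. Foxp3 is the transcription factor on which regulatory T cells depend. 1 library held 816 cells labelled as regulatory T cells (Treg) and 1 library held 1300 cells labelled as conventional CD4+ T cells (Tconv), with no treatment named for either, and both were made with inDrops, a droplet method that captures mRNA by its poly(A) tail. The labels do not say how many animals were used. The sort description names GFP-positive cells for both populations, so the labels were checked on Foxp3, which was at 380.1 counts per 1000000 UMIs (CPM) in the Treg library and had 6 UMIs in the Tconv library. Cd4 was at 501.97 and 703.03 CPM, Cd3e at 234.3 and 255.1 CPM, and Cd8a had 1 UMI in each. The libraries held 1468203 and 2002752 UMIs, with medians of 1688.5 and 1510.5 per cell, and 12 cell barcodes occurred in both.

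With 1 library per group, no difference given here has a replicate check and no p-value was computed. Intervals are 95% intervals that cover counting error only. They leave out the spread between cells, for which they are too narrow. UMIs of a gene were unevenly spread over cells: in cells thinned to 1000 UMIs the variance exceeded the mean for 84 of 86 members in Treg and 82 in Tconv.

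Ribosomal proteins assemble with ribosomal RNA into the small subunit, which decodes the mRNA, and the large subunit, which joins amino acids. Their mRNAs are among the most abundant of a lymphocyte, and most begin with a run of pyrimidines, the 5′ terminal oligopyrimidine (TOP) tract, through which their translation is placed under the control of the kinase mTORC1. Quiescent T cells carry few active ribosomes and build more of them on activation.

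Windows around the transcription start are shown for the members that stood furthest below and above zero in the Treg against Tconv comparison, so that the start region of both sets can be read side by side. RefSeq start regions on GRCm38 were matched for 63 of the 86 members, and the first start listed for each gene was used. Each line gives 60 bases, 40 before and 20 from the start on, 5′ to 3′ on the strand of the gene. Capitals mark runs of at least 6 C or T within 20 bases of the start. The first 4 genes were lower in Treg and the last 5 higher.
Rps21, chr2:180257339-180257398, plus strand: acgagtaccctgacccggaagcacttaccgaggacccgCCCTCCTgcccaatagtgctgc
Rpl14, chr9:120571477-120571536, plus strand: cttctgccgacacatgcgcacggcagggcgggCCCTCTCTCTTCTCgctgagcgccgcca
Rpl12, chr2:32961672-32961731, plus strand: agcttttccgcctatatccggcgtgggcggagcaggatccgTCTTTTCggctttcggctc
Rpl23, chr11:97782420-97782479, minus strand: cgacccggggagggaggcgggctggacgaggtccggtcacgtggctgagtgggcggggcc
Rpl26, chr11:68901526-68901585, plus strand: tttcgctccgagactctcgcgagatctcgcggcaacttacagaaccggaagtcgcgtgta
Rps27l, chr9:66946046-66946105, plus strand: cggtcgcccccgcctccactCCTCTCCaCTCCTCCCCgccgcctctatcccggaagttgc
Rpl39l, chr16:10170188-10170247, plus strand: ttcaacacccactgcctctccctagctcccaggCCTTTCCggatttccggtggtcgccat
Rpl39, chrX:37085203-37085262, minus strand: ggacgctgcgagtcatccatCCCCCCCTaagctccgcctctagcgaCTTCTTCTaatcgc
Rpl7l1, chr17:46782637-46782696, minus strand: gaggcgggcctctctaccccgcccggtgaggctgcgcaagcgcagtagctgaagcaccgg

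A pyrimidine run of this kind was present at 40 of the 63 matched starts (63.5%), and at 37.4% of all 27025 genes with a start region. Both sets shown include genes with and without it. In the whole window of 300 bases, on either strand, the ETS family motif CCGGAAG was found in 39.7% of members and 9.12% of all genes, and the Sp family box GGGCGG in 60.3% and 35.9%. Windows with the YY1 motif AAGATGGCG made up 6.35% and 1.49%, and those with TATAAA 11.1% and 14.2%. These are letter matches only, and the motifs can overlap each other and the pyrimidine runs.

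The family took a smaller part of the mRNA in the Treg library than in the Tconv library, at 26.1% of UMIs (26.05 to 26.19) against 32.6% (32.5 to 32.7). On the log2 scale the difference was -0.32 (-0.33 to -0.31), or 1.25-fold in favour of Tconv. Per cell, the mean number of family UMIs was 469.9 in Treg and 502.2 in Tconv, whereas UMIs of all other genes averaged 1329 and 1038. The lower share in Treg cells thus went with both slightly fewer family UMIs and more UMIs of other genes. Both subunits took part: small subunit symbols (Rps, with Rpsa) held 12.5% and 15.7% of UMIs, and large subunit symbols (Rpl and Rplp) 13.6% and 16.9%. The ratio of large to small subunit UMIs was 1.09 in Treg and 1.07 in Tconv.

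The library difference went with a technical quantity that hardly overlapped between the libraries. By the read and UMI numbers of the labels, Treg cells with at least 500 UMIs had a median of 31.9 mapped reads for each UMI, with 5% of cells below 25.6 and 5% above 39.5. Tconv cells had 19.1, with the same limits at 15.6 and 24.1. Within each library the family share was lower in cells with more reads per UMI (Spearman's rho over cells -0.30 in the 796 Treg cells and -0.27 in the Tconv cells with at least 500 UMIs, which leaves out 6 of 1300; the cells of each share 1 library, and the values are a description). In Tconv it was 33.5% in cells of 15 to 20 reads per UMI, 31.3% in cells of 20 to 25 and 28.1% in the 29 cells of 25 to 30. In Treg it was 24.1% in the 4 cells of 15 to 20, which hold 2703 UMIs in all and go against this order, 31.3% in the 33 cells of 20 to 25, 28.1% in cells of 25 to 30 (28.7% of the library), 25.8% in cells of 30 to 35 (41.9%) and 24.1% in cells of 35 and over (24.4%).

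In 2 of the 3 ranges where both libraries had cells, the summed shares differed by less than the counting interval. Between 25 and 30 reads per UMI the log2 ratio was 0.00 (-0.03 to 0.03), and the mean cell stood at 27.4% in Treg and 27.5% in Tconv. Between 20 and 25 it was also 0.00 (-0.02 to 0.02), although there the mean Treg cell, at 26.6% with cells of few UMIs weighted equally, lay below the mean Tconv cell, at 31.2%. Between 15 and 20, with the 4 Treg cells against 58.4% of the Tconv library, the ratio was -0.48 (-0.59 to -0.36). The cells of 25 to 30 kept the identity of their libraries: the Treg signature list summed to 4143 CPM in Treg and 302.4 CPM in Tconv. Effector genes, here the effector list described below but without Tmsb10, also moved with reads per UMI. They went from 2337 CPM to 4970 CPM across the Treg ranges from 20 upwards and from 2663 CPM to 3679 CPM across the Tconv ranges. Cells with at least 3 UMIs of another cell type's list were also more frequent at more reads per UMI, at 2.50%, 5.13% and 10.3% of the Tconv ranges and 0%, 11.5%, 12.3% and 15.1% of the Treg ranges from 20 upwards. Without them the ratio was -0.02 (-0.05 to 0.01) between 25 and 30 and -0.03 (-0.06 to -0.01) between 20 and 25. These ranges were chosen after the values had been seen. Whether the library difference belongs to the cell population or to the libraries cannot be told apart here, and every comparison between the libraries that follows carries this limit.

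**Figure D1:**
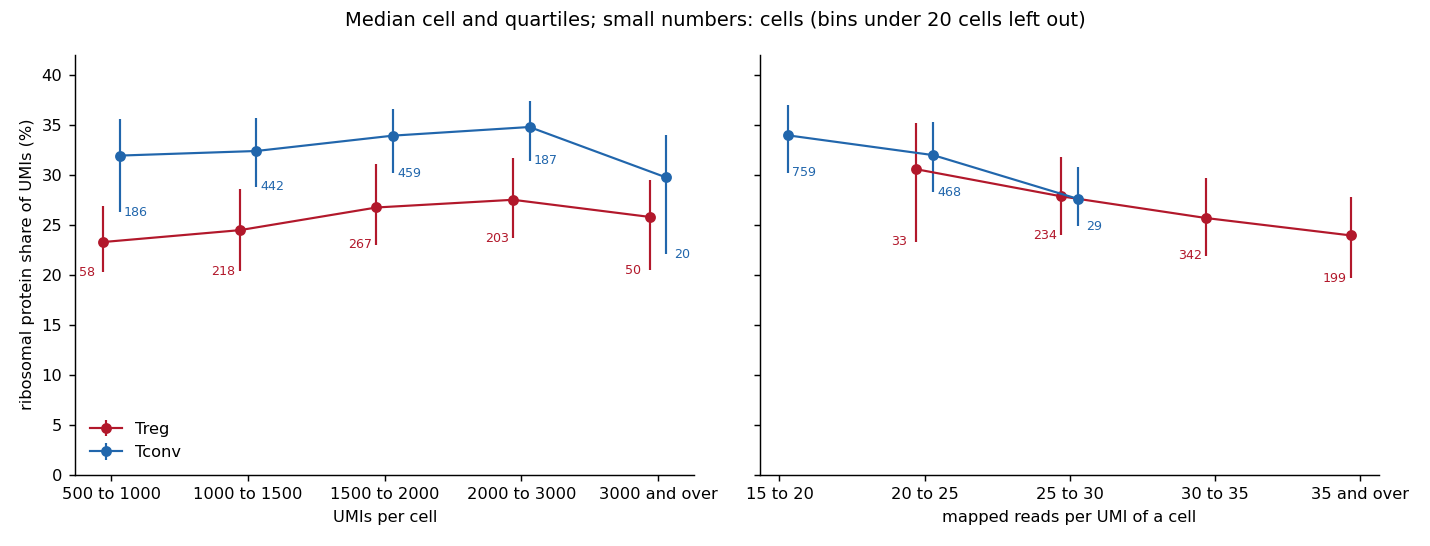
Share of UMIs from ribosomal protein genes per cell (percent, vertical axis) by UMIs per cell (left) and by mapped reads per UMI (right), for Treg (red) and Tconv (blue); points are the median cell, bars the quartiles and small numbers the cells in each bin, and bins under 20 cells are left out. The libraries are apart in most depth bins, and at 25 to 30 reads per UMI the median cells lie at 27.8% and 27.6%.

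The library difference was present in 4 of the 5 depth bins at about its full size. In cells of 500 to 1000 UMIs the family held 23.2% in Treg and 31.02% in Tconv, in cells of 1000 to 1500 it held 24.6% and 31.95%, in cells of 1500 to 2000 it held 26.6% and 33.3%, and in cells of 2000 to 3000 it held 27.3% and 33.9%. The log2 ratio ran from -0.42 to -0.31 over these bins. In cells of 3000 UMIs and over the shares were 25.3% (50 cells) and 26.7% (20 cells), with a ratio of -0.08 (-0.10 to -0.05). Without cells that hold at least 3 UMIs of another type's list they were 26.5% (33 cells) and 31.4% (13 cells), with a ratio of -0.24 (-0.27 to -0.22). That cut was set before thinning, so deeper cells reach it more easily. Up to 3000 UMIs the share was higher in deeper cells of both libraries, and beyond that it was lower.

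Single cells of the same library differed far more than counting allows. After thinning to 1000 UMIs, the SD of the family share was 6.29 percentage points over 738 Treg cells, where binomial counting gives 1.39, and 5.35 points over the 85.2% of Tconv cells deep enough, where it gives 1.48. Small and large subunit genes moved together from cell to cell, with Pearson's r between their shares of 0.83 in Treg and 0.75 in Tconv. Single pairs of members were weakly related, with a mean r of 0.11 over 3003 pairs in Treg and 0.07 over 3081 pairs in Tconv, both in sparse counts of cells that share a library. The distributions of the libraries overlapped: 86.9% of Treg cells lay below the Tconv median of 33.4%, and in 79.2% of pairs of 1 cell from each library the Treg cell was the lower.

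**Figure D2:**
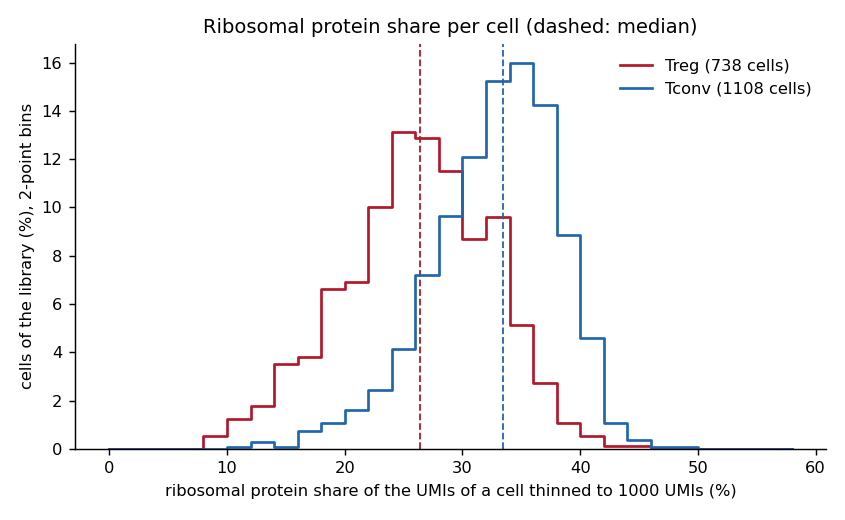
Distribution of the ribosomal protein share over cells thinned to 1000 UMIs (percent of UMIs, horizontal axis, in 2-point bins; percent of the cells of a library, vertical axis), with dashed lines at the medians of 26.4% for Treg and 33.4% for Tconv. The Treg distribution lies to the left of the Tconv one, and the 2 overlap widely.

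Most members followed the family. Of the 86, 53 were at least 1.2-fold lower in Treg and 4 at least 1.2-fold higher, where 21.5% and 40.5% of all 8972 genes with at least 20 UMIs were. Among the 58 non-members with at least 3000 UMIs, which are abundant like most members, those shares were 25.9% and 24.1%. Small subunit genes had a median log2 ratio of -0.40, and 23 of 31 were 1.2-fold lower. Large subunit genes had a median of -0.29, and 28 of 46 were 1.2-fold lower and 1 higher. All genes together had a median of 0.14. With TMM factors from edgeR in place of the total, every ratio dropped by 0.16 and the median of all genes became -0.02. Of the members, 80 were then lower by any amount. With the total 74 were, beside 38.8% of all genes. The share of all genes below 0 with TMM factors is not given here.

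The lowest ratios belonged to genes of both subunits. Rps20, a small subunit protein of the head region, was at 2421 CPM in Treg and 3933 CPM in Tconv, a log2 ratio of -0.70 (-0.76 to -0.64). Rpl14 stood at 1494 and 2379 CPM (-0.67, -0.74 to -0.60), and Rps21 at 2995 and 4753 CPM (-0.67, -0.72 to -0.62). Rps29, a small zinc-binding protein of the small subunit and the member with the most UMIs in both libraries together, was at 8217 and 12370 CPM (-0.59, -0.62 to -0.56). Rpl12, which sits at the base of the stalk that recruits elongation factors, was at 4751 and 7119 CPM (-0.58, -0.62 to -0.54). Rpl23 and Rpl17 were both at -0.56. Since these genes were picked as the lowest, they were also low within the family, which restates the same ranking. Rps20 made up 0.927% of family UMIs in Treg and 1.21% in Tconv, a difference of -0.38 on the log2 scale.

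The lateral stalk of the large subunit, which binds the translation factors, was lower in Treg as a whole. Its base, Rplp0, had 3352 and 4636 CPM (-0.47), and its arms, Rplp1 and Rplp2, had 7479 and 9525 CPM (-0.35) and 4750 and 5850 CPM (-0.30). Rpsa, a small subunit protein also known as the laminin receptor precursor, stood at 2870 and 3684 CPM (-0.36). The other members with the most UMIs were lower by less: Rps27 had 7175 and 8154 CPM (-0.18) and Rps23 had 6543 and 7808 CPM (-0.26).

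**Figure D3:**
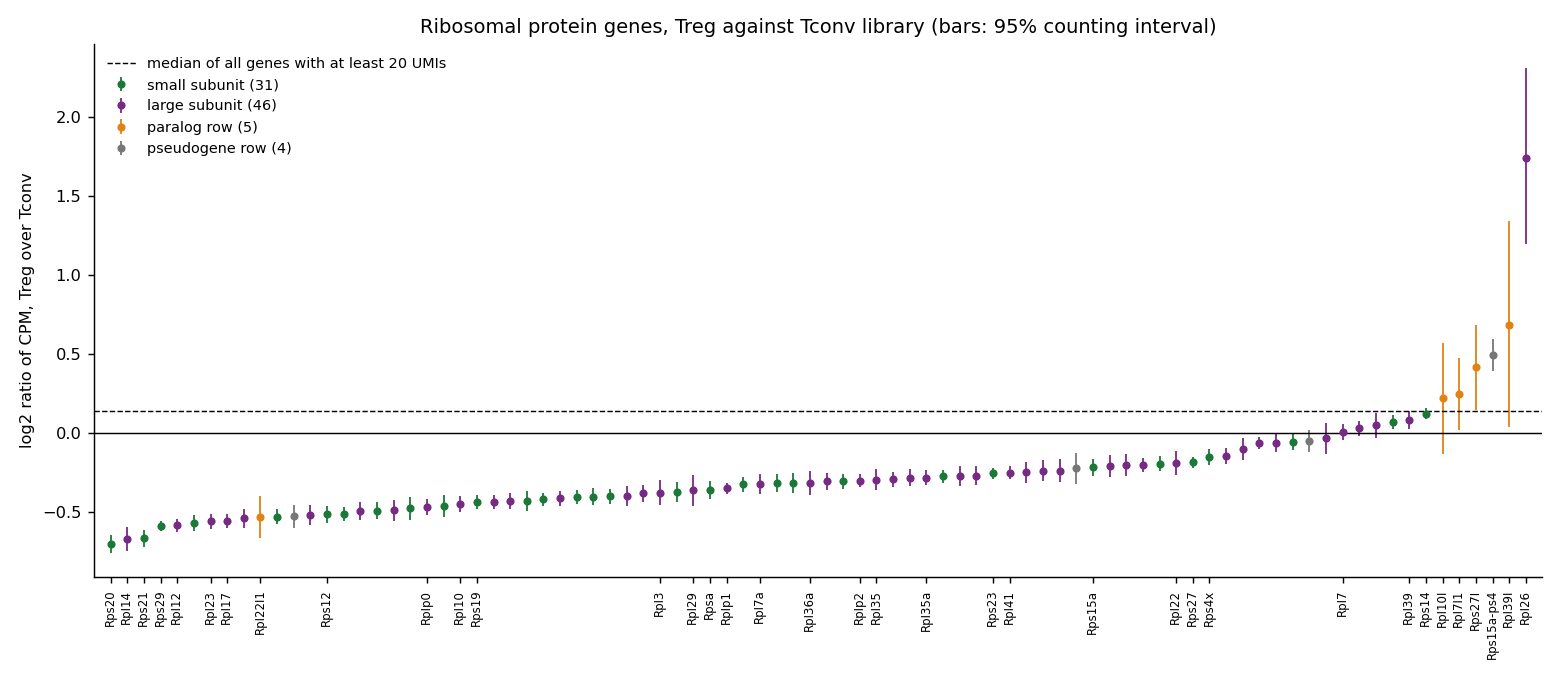
Log2 ratio of CPM, Treg over Tconv, for each of the 86 ribosomal protein genes in order of the ratio (vertical axis; a selection of genes is labelled), with 95% counting intervals and colours for the kind of row; the dashed line marks where the median gene of the table lies, at 0.14. Most members lie below 0, and Rpl26 stands furthest above it at 1.74.

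A few rows went against the family. Rpl26, a large subunit protein at the exit of the peptide tunnel that also binds the p53 mRNA, had 98 UMIs in the Treg library and 40 in the Tconv library, a log2 ratio of 1.74 (1.196 to 2.31). It was by far the least counted subunit gene, the next being Rpl29 with 3479 UMIs in all. So few counts for a protein present once in every ribosome leave its level in this table uncertain, and reads lost to near-identical copies were not tested. Rpl39l, the testis-enriched copy of Rpl39, had 46 and 39 UMIs (0.69, 0.04 to 1.34). Rps27l, a p53-responsive copy of Rps27, was at 157.3 and 117.8 CPM (0.42, 0.15 to 0.68). Rpl7l1, a relative of Rpl7, was at 202.97 and 170.8 CPM (0.25, 0.02 to 0.48). The pseudogene row Rps15a-ps4 was at 1144.9 and 812.9 CPM (0.49, 0.40 to 0.59), while its parent gene Rps15a was at 3271 and 3803 CPM. Counts of such near-identical rows depend on how shared reads were assigned and are uncertain.

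Rps14 and Rpl39 were also above 0, at 0.12 (0.09 to 0.16) and 0.08 (0.03 to 0.14), but both lay below the median of all genes and turned negative with TMM factors. Rps14, a small subunit protein next to the decoding site, had 8521 CPM in Treg and 7831 CPM in Tconv and was the member with the most UMIs in Treg. Rps29 held that place in Tconv.

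Members of some paralog pairs had different ratios. Rpl22, which binds viral and cellular RNA and is needed for early T cell development, was at 1633 and 1864 CPM (-0.19), and its copy Rpl22l1 at 484.9 and 700.04 CPM (-0.53, -0.66 to -0.40), the lowest ratio among the 5 paralog rows and the only one below 0. Rps27 stood at -0.18 and Rps27l at 0.42, with intervals apart. Rpl39 and Rpl39l had ratios of 0.08 and 0.69, and Rpl7 and Rpl7l1 of 0.01 and 0.25, with overlapping intervals in each of these pairs. For Rpl10 (-0.45) the copy Rpl10l had 87.9 and 75.4 CPM and an interval across 0 (-0.13 to 0.57). Rpl3, a large subunit protein that reaches the peptidyl transferase centre, was at -0.38, and Rpl3l, the muscle form, had no UMI in either library. The X-linked Rps4x was at -0.15, Rps4l had 6 and 8 UMIs, and Rpl36a was at -0.32 with 9 and 10 UMIs for Rpl36al. Rpl36al, with 19 UMIs in all, was the row just outside the minimum, and Rpl39l, with 85, the row just inside.

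Within cells of 25 to 30 reads per UMI, 84 members had at least 20 UMIs and a UMI in both libraries. Their median ratio was 0.02, that of all genes 0.03. 8 members were at least 1.2-fold lower in Treg and 12 higher, beside 37.2% and 39.1% of all genes in those cells. Some of the order of the members was still there: Rps29 stood at -0.38 (-0.52 to -0.23), Rps20 at -0.28 (-0.55 to 0.00) and Rpl12 at -0.23 (-0.42 to -0.03), and Rps14 at 0.56 (0.37 to 0.75), Rpl39 at 0.42 (0.12 to 0.74) and Rps15a-ps4 at 1.04 (0.45 to 1.70). Rpl17 was above 0 there, at 0.28 (0.04 to 0.53). Rpl26 had 30 UMIs in the Treg cells of this range and 0 in the 29 Tconv cells, where a count of 0 allows up to 3 counts, so no fold is given.

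Cells with at least 3 UMIs of another cell type's list were flagged. The lists were of platelet, erythroid, myeloid, plasmacytoid dendritic, B lineage (B and plasma cell) or cytotoxic (CD8 or NK) genes. Flagged cells made up 12.3% of the Treg library and 3.77% of the Tconv library. The flag is a count and not a cell type, and whether these cells were T cells was not tested. It was set on UMIs before thinning, which deeper cells reach more easily. Flagged and other cells had medians of 1872.5 and 1673.5 UMIs in Treg, and 1695 and 1504 in Tconv. B cell genes summed to 743.8 and 198.7 CPM, with 1 and 2 of 12 genes at 0. Myeloid genes summed to 607.5 and 318.6 CPM, with 2 and 3 of 15 at 0, and plasmacytoid dendritic genes to 360.3 and 217.7 CPM, with 1 of 8 at 0 in each. Erythroid genes summed to 155.3 and 11.5 CPM, and CD8 or NK genes to 100.1 and 87.4 CPM. Plasma cell genes, at 105.6 and 239.2 CPM, and platelet genes, at 27.2 and 38.4 CPM, went the other way. The family share of the flagged cells was 24.7% and 25.2%. In the remaining cells it was 26.4% and 32.98%, so the library difference was as large without them (-0.32).

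Effector and resting T cells were compared within each library, which keeps reads per UMI close. Classes were ranges of a score and not cell types, and used no ribosomal protein gene. In the planned version a cell thinned to 1000 UMIs was effector-rich with at least 3 UMIs of 26 effector or memory genes and more of them than of 19 resting genes, and resting-like with at least 2 resting UMIs and at most 1 effector UMI. Tmsb10, a thymosin present in nearly all T cells, held 49.01% of the effector list's UMIs in Treg and 65.9% in Tconv, so that few cells could be resting-like: 21 in Treg, where 70.1% of the thinned cells were effector-rich, and 10 in Tconv, where 56.5% were. The family share outside both lists was 25.99% in effector-rich and 27.1% in resting-like Treg cells, a log2 ratio of -0.06 (-0.10 to -0.02), and 32.6% and 32.3% in Tconv, a ratio of 0.01 (-0.04 to 0.06). With another random thinning, which left 15 resting-like Tconv cells, the Tconv ratio was -0.10 (-0.14 to -0.06). In Treg 19 of 85 members were at least 1.2-fold lower in effector-rich cells and 13 higher, where 43% and 31.7% of all genes were. In Tconv 15 of 82 were lower and 17 higher, where 65.8% and 15.2% of all genes were.

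After these values had been seen the list was used without Tmsb10, as 1 of 3 shortened lists tried, which made 32.9% of thinned Treg cells effector-rich and 23.7% resting-like, and 12.5% and 37.2% of Tconv cells. The family then stood lower in effector-rich cells of both libraries. In Treg its share was 23.9% (23.8 to 24.1) in effector-rich and 28.01% (27.8 to 28.2) in resting-like cells, and in Tconv 29.3% (29.1 to 29.5) and 34.3% (34.1 to 34.4). The log2 ratios were -0.23 (-0.24 to -0.21) in both. Before thinning, and of all UMIs, the shares were 23.5% and 28.02% in Treg and 28.6% and 33.9% in Tconv. The other shortened lists, also without Emp3 and then also without Vim, S100a10, S100a11 and Crip1, gave -0.27 and -0.44 in Treg and -0.29 and -0.44 in Tconv. Since the lists were shortened with results in view, these values are a description. Moving the cut by 1 UMI bears on the 33.1% of Treg and 36.3% of Tconv cells that lie within 1 UMI of it.

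Reads per UMI differed little between these classes, with medians of 32.9 and 31.6 in Treg and 19.5 and 18.9 in Tconv. Within ranges of reads per UMI the ratio was -0.14 and -0.26 in Treg cells of 25 to 30 and 30 to 35, and -0.19 and -0.29 in Tconv cells of 15 to 20 and 20 to 25. Cells flagged for another type's list made up 10.3% and 16% of the classes in Treg and 10.1% and 2.67% in Tconv. Without them the ratios were -0.23 and -0.20.

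Most members lay below 0 in the class comparison, and fewer passed 1.2-fold. In Treg 79 of 85 members were lower in effector-rich cells (45.1% of all genes were) and 31 were at least 1.2-fold lower (28.2%), with none 1.2-fold higher (37.4%). In Tconv 81 of 84 were lower (45.9%), 31 were 1.2-fold lower (28.3%) and 2 were 1.2-fold higher (36.7%). Of the 84 members counted in both, 77 were lower in both libraries and 16 at least 1.2-fold lower in both. No member had intervals on opposite sides of 0. The share of all genes lower in both libraries is not given here, so these joint counts have no background beside them. Rps20 was at -0.46 (-0.64 to -0.28) in Treg and -0.39 (-0.55 to -0.24) in Tconv. In Treg Rps19, the gene most often mutated in Diamond-Blackfan anaemia, was at -0.46 (-0.59 to -0.32), and Rpl35a, another gene of that disease, at -0.43 (-0.58 to -0.28). In Tconv Rpl35 was at -0.46 (-0.66 to -0.27) and Rpl23 at -0.39 (-0.52 to -0.25).

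Some members had ratios near 0 in at least 1 library. Rpl7a was at 0.00 (-0.20 to 0.21) in Treg and -0.01 (-0.20 to 0.17) in Tconv. Rpl41, whose product is the smallest protein of the ribosome, stood at 0.05 (-0.08 to 0.18) and -0.10 (-0.22 to 0.02), and Rps12 at 0.08 (-0.10 to 0.26) and -0.22 (-0.37 to -0.07). Rpl39, which was above 0 between the libraries, was lower in effector-rich cells, at -0.17 (-0.33 to -0.01) and -0.40 (-0.58 to -0.23). Rps14 was likewise at -0.12 (-0.22 to -0.03) and -0.21 (-0.32 to -0.11).

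**Figure D4:**
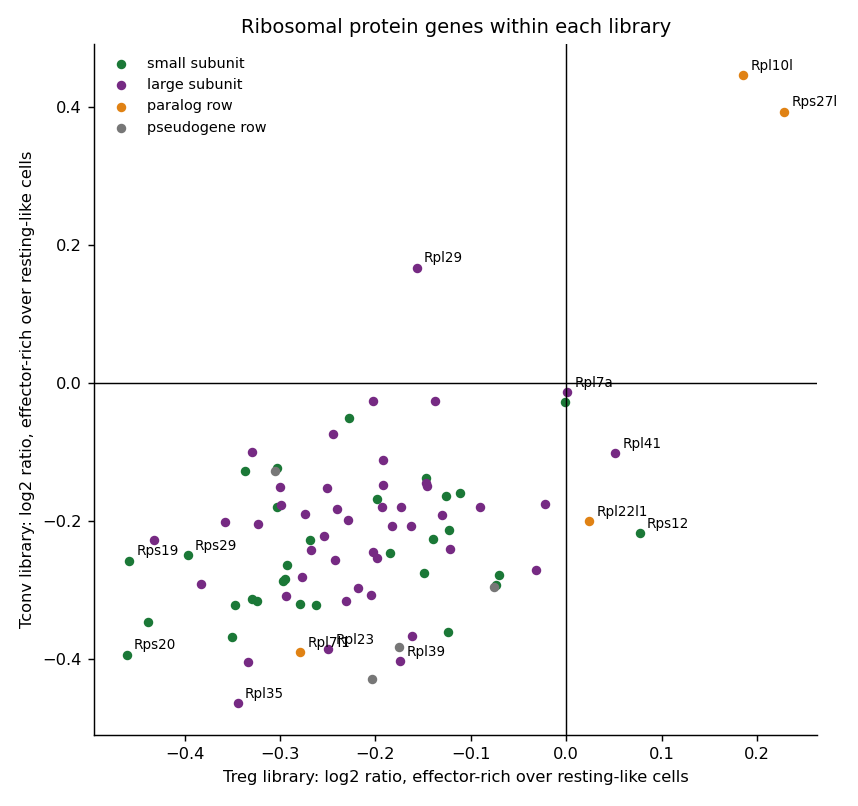
Log2 ratio of each ribosomal protein gene, effector-rich over resting-like cells by the effector list without Tmsb10, in Treg (horizontal axis) and Tconv (vertical axis), with colours for the kind of row. Members with at least 20 UMIs in the classes of each library are drawn, and 77 of 84 lie in the lower left, where both ratios are below 0.

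Across the range of the score the share was level at first and lower at the upper end. In Treg it was 26.8% in cells with no effector UMI, 28.1% with 1, 27.97% with 2, 28.01% with 3, 26.6% with 4, 24.8% with 5 to 6, 22.5% with 7 to 9 and 20.02% with 10 or more. In Tconv the same steps gave 33.7%, 33.9%, 33.3%, 32.96%, 32.4%, 31.2%, 29.5% and 22.4%. At equal effector UMIs Treg was below Tconv in each step, with log2 ratios from -0.39 at 7 to 9 UMIs to -0.16 at 10 or more. The resting list alone gave a smaller range: from 23.9% with none of its UMIs to 26.8% with 7 or more in Treg, and from 27.97% to 33.05% in Tconv.

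**Figure D5:**
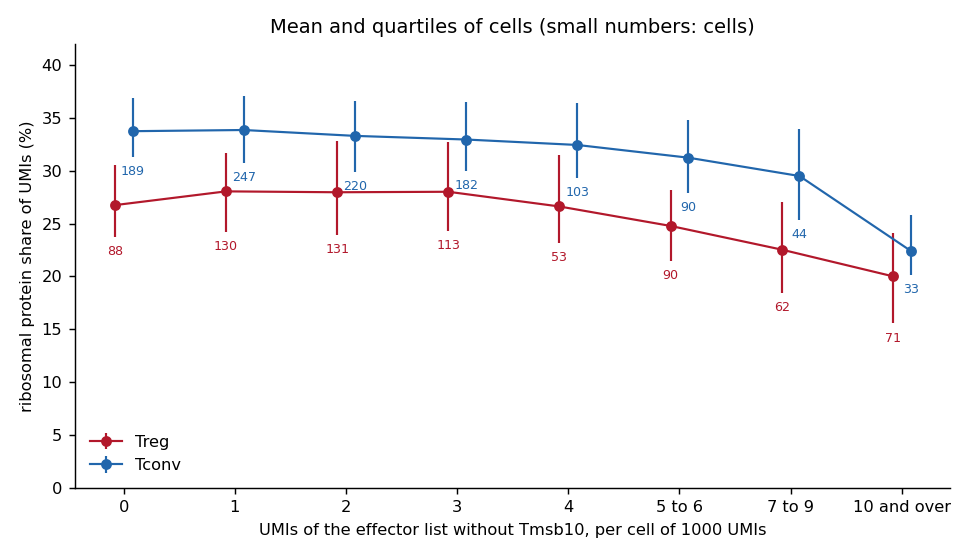
Mean ribosomal protein share (percent, vertical axis) of cells thinned to 1000 UMIs by their number of UMIs of the effector list without Tmsb10 (horizontal axis), with quartiles as bars and cell numbers beside them. The share is near 28% in Treg and 33% in Tconv over 1 to 3 effector UMIs and lowest, at 20.02% and 22.4%, with 10 or more.

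Regulatory genes gave the same direction within libraries. Treg cells with no UMI of the Treg signature had a family share of 27.5%, those with 1 to 2 had 27.4%, those with 3 to 5 had 26.6% and those with 6 or more had 24.2%. Treg-labelled cells with a Foxp3 UMI were at 24.9% (28.3% of thinned cells) and those without at 26.6%. Among Tconv cells the share was 33.2% with no signature UMI, 31.1% with 1 to 2, 29.4% with 3 to 5 (29 cells) and 22.97% with 6 or more (6 cells). Signature and effector lists were not separated from each other here, and these steps were not taken at equal reads per UMI. In Treg the signature list went from 3430 to 5300 CPM across the ranges of reads per UMI from 20 upwards. It was at 5919 CPM in the 4 cells of 15 to 20. The Tconv ranges had no steady order, at 322.6, 400.6 and 302.4 CPM. By UMIs of Myc, whose protein activates ribosome genes, there was no steady order: Treg cells with none, 1 (16 cells) and 2 or more (25 cells) were at 26.1%, 28.8% (28.1 to 29.5) and 26.7%, and Tconv cells at 32.7%, 32.9% and 32.6%.

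Lists of other translation genes differed from each other in the library comparison. Fau, which encodes a ribosomal protein as a fusion to a ubiquitin-like protein, stood at -0.15, and Gnb2l1, which encodes the ribosome-bound scaffold RACK1, at -0.25. Elongation factors were like the family, with a median of -0.32 over 7 genes, of which 4 were at least 1.2-fold lower and none higher. Eef1a1, which brings the aminoacyl tRNA, was at 7826 and 9743 CPM (-0.32), and Eef2, which moves the ribosome along, at 1058.4 and 1362.6 CPM (-0.36). Other mRNAs with a TOP tract, a list that shares the elongation factors, had a median of -0.26 over 19 genes, with 9 lower and 1 higher. The most abundant of those named, Tpt1, was at 10368 and 13658 CPM (-0.40).

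Initiation factors had a median of -0.03 over 34 genes, with 8 at least 1.2-fold lower and 5 higher. Eif5a, which helps stalled ribosomes and carries hypusine, was at 826.2 and 547.2 CPM (0.59), Eif4h, a helper of the RNA helicase eIF4A, at 175.04 and 115.8 CPM (0.60), and Eif5 at 171.6 and 225.7 CPM (-0.40). Ribosome biogenesis genes had a median of -0.06 over 50, with 19 lower and 7 higher. Among them Bop1, of the large subunit processing complex, was at 25.2 and 45.9 CPM (-0.87, -1.46 to -0.30) and Nip7 at 339.9 and 275.1 CPM (0.30). The 76 mitochondrial ribosomal protein genes had a median of 0.06, with 16 lower and 23 higher. Mrps6 was at 82.4 and 43.9 CPM (0.91) and Mrpl4 at 93.3 and 54.4 CPM (0.78). Regulators of mTORC1 and Myc had the highest median, 0.42 over 16 genes, with 1 lower and 9 higher. Mxd1, an antagonist of Myc, was at 68.1 and 11.5 CPM (2.57, 1.90 to 3.29), and Rps6kb1, which encodes the S6 kinase, at 23.8 and 43.9 CPM (-0.88, -1.49 to -0.30). For all of these lists the background was the same 21.5% lower and 40.5% higher.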

How the data were processed

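The table deposited by the authors holds raw UMI counts per gene and cell, 2116 cells in all, per the labels and the whole-number values. Reads were handled with SAMtools and TopHat2 on mm10, as far as the submitters' processing notes list tools and builds. How UMIs were counted, shared reads assigned and cells filtered is not given in the sources used here. Table UMIs made up 98.4% (Treg) and 98.1% (Tconv) of the UMI numbers in the labels. Mapped reads per UMI were computed from the labels.

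The codes in the cell titles, read together with the title of the series, gave the groups. UMIs were summed per library or class and given as CPM, a count per captured molecule with no length scaling. Ratios have exact conditional intervals and shares Clopper-Pearson intervals, all at 95%. Called means at least 1.2-fold. Cells were thinned to 1000 UMIs without replacement, leaving out 78 Treg and 192 Tconv cells. No doublet caller was run, and cells above 2 times the median depth were left out in an alternative. Named genes were chosen by rank of the interval bounds, UMI number, paralogy or list. Some genes that this rule picks are not reported here. Members, lists and rules were chosen with earlier results of these data known. The steps by reads per UMI, Treg signature, Foxp3 and Myc and the shortened effector lists were added after values had been seen. Promoters are RefSeq regions of GRCm38, the assembly also called mm10. The scripts were tested on simulated data. Tools were Python 3.11.15, NumPy 2.4.6, SciPy 1.17.1, pandas 2.3.3, R 4.3.3 and, for TMM factors only, edgeR 4.0.16.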

Additional observations from a re-analysis of the deposited data

How the results depend on the processing

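Between the libraries, members at least 1.2-fold lower in Treg numbered 53 to 68 over the planned settings (53 in the values above), those higher 3 to 5, and the family stayed below 0. The count of 68 came with TMM factors and without ribosomal protein genes in the total. Both scalings lower the ratio of every gene, with the median of all genes at -0.02 and 0.006 in place of 0.14. Shares of all genes called are not given for them. The family ratio of -0.32 was -0.48 with TMM factors, -0.45 without ribosomal protein genes in the total, -0.33 without cells above 2 times the median depth and -0.34 with each cell weighted equally. The members' median of -0.31 was -0.47 with TMM factors and -0.44 without ribosomal protein genes in the total. In cells of 25 to 30 mapped reads per UMI, a setting added later, the family was at 0.00048 and the median at 0.020, with 9 members lower and 12 higher of the 85 with a ratio. Without cells flagged for another type's list the family was at -0.020 there, at -0.032 in cells of 20 to 25 and at -0.24 in cells over 3000 UMIs. At 25 to 30 Rpl39l turned to -0.46, Rpl17 to 0.28, Rpl4 to 0.16, Rpl27a to 0.069, Rpl8 to 0.29, Rpl35a to 0.067, Rps27a to 0.044, Rpl22l1 to 0.11, Rpl36a to 0.34 and Rpl3 to 0.26. The cause was not tested. For effector-rich over resting-like cells with the planned list, the Tconv ratio of 0.01 was -0.061 when thinned to 500 UMIs and -0.10 with another random seed, with as few as 10 resting-like cells. Without Tmsb10 it was -0.23, without Tmsb10 and Emp3 -0.29, and without those and Vim, S100a10, S100a11 and Crip1 -0.44. With the list without Tmsb10 it was -0.31 from 5 effector UMIs and -0.20 without flagged cells. In Treg the same 5 settings gave -0.23, -0.27, -0.44, -0.31 and -0.23 in place of -0.06. The ratio of cells over 3000 UMIs to cells of 500 to 1000 was 0.12 in Treg, and 0.18 without flagged cells. In Tconv it was -0.22, 0.00021 without flagged cells and -0.17 with each cell weighted equally. No paired analysis was possible because each group was 1 library and the numbers in the titles only name cells. Rows under about 300 UMIs, such as Rpl26, Rpl39l and Rpl10l, are limited by depth.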
